A study of Mus musculus with 9 samples.

Results

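Fads1, Fads2, Elovl1, Elovl2, Elovl5, Hacd3 and Tecr encode enzymes that build the long polyunsaturated fatty acids of the liver, and their mRNA levels were read from RNA-seq of mouse liver. They were chosen by name as 2 desaturases, 3 elongases and 2 enzymes of the shared elongation cycle, by a rule that holds no measured value, though with earlier results of these data known, and are 7 of the 54532 genes in the table. None of the 7 is an acyltransferase, so phospholipid acyltransferases were read as a separate list. The 3 groups had 3 libraries each: wild-type mice, mice with a knockout of Cth, and Cth knockout mice that received betaine at 1% in their drinking water. The Cth product, cystathionine gamma-lyase, cleaves cystathionine to cysteine in the transsulfuration pathway, and betaine is a methyl donor that remethylates homocysteine to methionine. There was no wild-type group on betaine. The labels give no strain, age, sex or batch, and nothing in them says whether replicates came from different animals. The p-values therefore cover the spread among these libraries, which may be technical. In wild type that spread also holds a difference in sex-linked expression between libraries, given below.

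Linoleic and alpha-linolenic acid come from the diet and are lengthened and desaturated in the endoplasmic reticulum, above all in hepatocytes. FADS2, the delta-6 desaturase, takes the first step, ELOVL5 lengthens the product, and FADS1, the delta-5 desaturase, then yields arachidonic and eicosapentaenoic acid. ELOVL2 lengthens these further towards docosahexaenoic acid, whose last step is chain shortening in peroxisomes. ELOVL1 acts mainly on saturated and monounsaturated very-long-chain acyl-CoA. Each round of elongation has a condensing step by an ELOVL, a first reduction, a dehydration by a 3-hydroxyacyl-CoA dehydratase such as HACD3, and a last reduction by TECR. In liver the genes of this pathway are known targets of SREBP-1c, of LXR acting through it, and of PPAR-alpha.

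The sequences just before the start sites of Elovl2, Hacd3 and Tecr are shown because Elovl2 and Hacd3 fell and Tecr rose in the knockout, and Elovl2 and Hacd3 then had unlike levels with betaine. RefSeq's promoter table on GRCm38.p6 held an entry for 6 of the 7 genes. Each line gives the 250 bases before the RefSeq start, 5′ to 3′ on the gene's own strand, with matches to a searched motif in capitals. The Elovl2 window is chr13:41220404-41220653, the Hacd3 window chr9:65021718-65021967 and the Tecr window chr8:83594492-83594741, all on the minus strand. The last 2 bases of the Elovl2 window lie in an exon of the GENCODE M21 annotation, and the Tecr window lies within GENCODE's span of the gene.
Elovl2: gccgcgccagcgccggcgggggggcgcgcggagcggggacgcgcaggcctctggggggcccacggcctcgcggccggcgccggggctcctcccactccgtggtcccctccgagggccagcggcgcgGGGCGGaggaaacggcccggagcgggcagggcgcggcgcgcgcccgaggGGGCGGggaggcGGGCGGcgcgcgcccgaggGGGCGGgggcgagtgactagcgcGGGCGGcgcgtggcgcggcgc
Hacd3: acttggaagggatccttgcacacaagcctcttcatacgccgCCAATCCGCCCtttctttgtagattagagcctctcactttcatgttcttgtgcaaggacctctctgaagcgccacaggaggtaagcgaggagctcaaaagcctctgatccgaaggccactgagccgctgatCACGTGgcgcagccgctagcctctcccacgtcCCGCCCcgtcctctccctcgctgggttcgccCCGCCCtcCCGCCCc
Tecr: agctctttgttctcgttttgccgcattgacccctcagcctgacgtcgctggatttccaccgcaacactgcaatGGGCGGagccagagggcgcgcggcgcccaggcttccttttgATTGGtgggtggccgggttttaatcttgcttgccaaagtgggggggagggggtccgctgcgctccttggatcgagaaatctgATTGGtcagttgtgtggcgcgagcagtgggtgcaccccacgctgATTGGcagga

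The motifs, searched on both strands, were the E-box CACGTG, the CCAAT box CCAAT, the GC box GGGCGG and the TATA box TATAAA. Elovl2 had 5 GC boxes and none of the others in a window of 87.2% G and C, against a median of 52.4% over all 32536 windows of this length. Hacd3 had an E-box 78 bases before the start, 1 CCAAT box and 4 GC boxes, the first of which adjoins the CCAAT box. Tecr had 3 CCAAT boxes, read as ATTGG on the strand shown, and 1 GC box. Of all windows, 33.0% held a GC box, 33.8% a CCAAT box, 6.04% the E-box and 12.3% the TATA box. The letters of the TATA box were in none of the members' windows. In the first windows of the other members, Elovl1 had 5 GC boxes and a CCAAT box that overlaps one of them, Elovl5 an E-box and 2 CCAAT boxes, and Fads2 1 GC box. Of the 250 bases of the Fads2 window, 243 lie in GENCODE exons of Fads2, so most of it is transcribed by that annotation. A match is a run of letters and was not tested as a binding site.

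Levels are in FPKM, fragments scaled to exon length and to a factor for each library, as the authors deposited them. That factor followed median-of-ratios size factors rather than the library's total of reads. Reads recovered from the FPKM came to between 15183239 and 17471492 per library. Cth was at 219 to 285 FPKM in the wild-type libraries, at 0.278 to 0.770 in the knockout and at 0.309 to 0.781 in the betaine-supplemented knockout, as labelled. Wild-type replicate 3 stood apart: it had Xist at 26.6 FPKM, against at most 0.0124 elsewhere, and 0 FPKM of Ddx3y, Eif2s3y, Kdm5d and Uty. The other 8 libraries had all of these 4 genes, with Ddx3y at 8.30 to 12.9 FPKM. Wild-type replicate 3 thus had the expression of a female and the others that of males, and both comparisons with wild type carry this difference. It also had Elovl3, a sex-biased elongase, at 5.40 FPKM against 333 to 780 in the other 8 libraries. The members' values that rest on this library, and the list calls that change without it, are given with and without it. Hepatocyte markers summed to 46586 to 63865 FPKM in wild type, 40248 to 51914 in the knockout and 32336 to 45548 with betaine, and Alb alone made up 18959 to 51130 FPKM of these sums. Of the 6 hepatocyte markers 2 were called higher and 1 lower in the knockout, against 1 and 1 without wild-type replicate 3. Over all genes tested, 12.8% (1519) were called higher and 12.7% (1510) lower in the knockout. In the betaine group against wild type these shares were 5.87% (696) and 5.78% (685). Without that replicate the counts were 1184 and 1375, and 660 and 757. These shares and counts apply to each marker list here. Apoa1 was at 5106 to 5814 FPKM in wild type and 7616 to 10849 in the knockout, and Serpina1c at 374 to 921 and 1339 to 1921, while Cps1 was at 488 to 1044 and 225 to 340. Markers of liver endothelial cells summed to 31.5 to 57.0, 23.5 to 31.1 and 19.7 to 31.2 FPKM in the same order, and those of Kupffer cells to 113 to 142, 71.9 to 87.2 and 53.8 to 149. In the knockout 1 of 6 endothelial markers was lower, as was 1 of 6 in the betaine group against wild type, and 0 of 6 in either without wild-type replicate 3. With that library left out, 2 of 6 stellate cell markers were higher in both comparisons with wild type and 1 of 4 tested cholangiocyte markers lower in the knockout, against 0 of each with all libraries. Of the 6 Kupffer cell markers 0 were called by limma in any comparison, and the part of other cells in the members' levels was not tested. In bulk tissue, fewer cells of a type and less RNA per cell cannot be told apart.

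A gene was called changed at an adjusted p below 0.05 in limma, fitted on log2(FPKM + 0.5) to the 11852 genes whose mean reached 0.5 FPKM. All 7 members passed that filter. A fold change on this scale slightly understates the change of low genes, and Elovl1 is the lowest member.

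In knockout liver Fads2, Elovl2 and Hacd3 fell and Elovl1 and Tecr rose, while Fads1 and Elovl5 did not pass the test. Thus 5 of 7 members were called, 2 higher and 3 lower, against 25.6% of all genes tested (12.8% higher and 12.7% lower). With betaine the levels of Fads2 and Hacd3 lay near those of wild type, whereas Elovl2 stayed low and Elovl1 high.

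**Figure D1:**
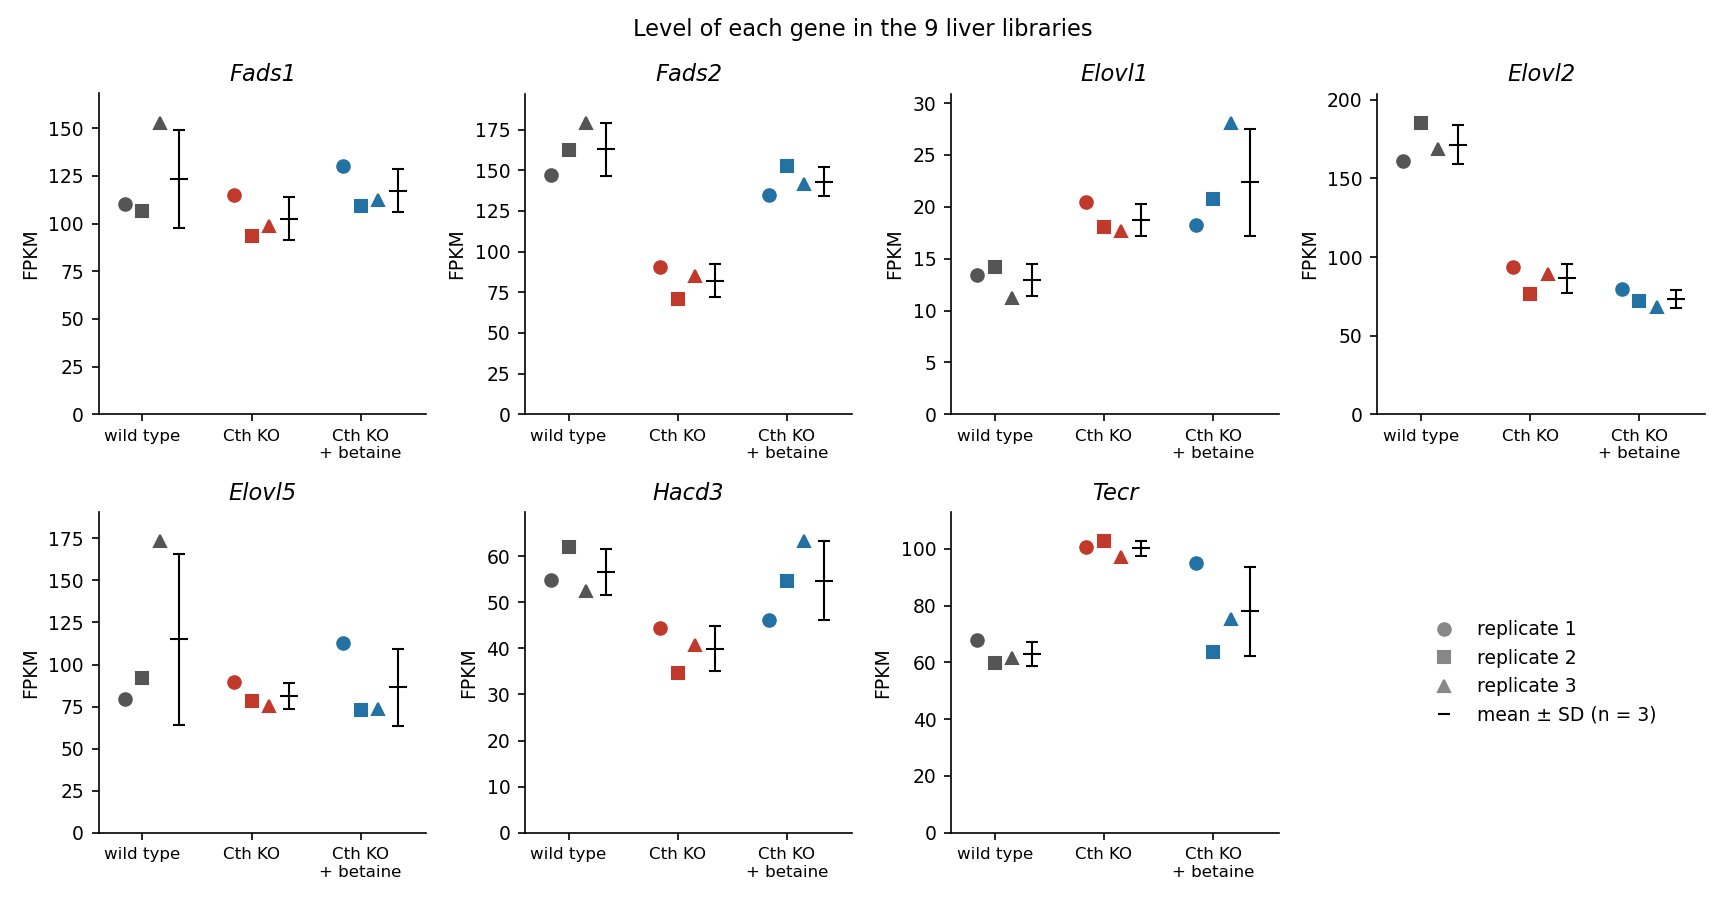
FPKM of each of the 7 genes (one panel per gene, axis from 0) in the 9 libraries by group, with points for libraries and bars for the mean and SD of 3. The wild-type and knockout points of Fads2, Elovl2, Elovl1, Hacd3 and Tecr do not overlap, and wild-type replicate 3 is the highest point for Fads1 and Elovl5.

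Fads2, on chr19:10062765-10101746 of GRCm38 (minus strand), encodes the delta-6 desaturase that sets the entry of linoleic acid into the pathway. It was at 147, 162 and 179 FPKM in wild-type replicates 1 to 3. The knockout libraries had 90.7, 71.0 and 84.8 FPKM, and those with betaine 135, 152 and 142 FPKM. All knockout libraries lay below all others, and the betaine range overlapped that of wild type. The knockout mean of 82.2 ± 10.1 FPKM (SD, n = 3) was 0.504 times the wild-type mean of 163 ± 16.2. In log2 this was a fall of -0.99 ± 0.14 (SE), with an adjusted p of 0.00567 in limma. The mean with betaine, 143 ± 8.90 FPKM, was 1.74 times that of the knockout.

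The difference of Fads2 with betaine, 0.80 ± 0.14 in log2, had an adjusted p of 0.0758 in limma and was not called. Its unadjusted limma p was 0.000245. Without wild-type replicate 3, which is in neither group of that comparison, the adjusted p was 0.0366 with the same fold change. Leaving it out alters the shared estimate of spread and which genes pass the filter on the mean. Without betaine replicate 1 the change was 0.84 and the adjusted p 0.0313. In all, this difference was called in only 4 of 20 alternative settings. The change ranged there from 0.70 to 1.17 and the adjusted p in limma from 0.0281 to 0.278. Between the betaine group and wild type the difference was -0.18 with an adjusted p of 0.408, and its 95% interval ran from -0.50 to 0.13.

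Fads1, on chr19:10182888-10196877 (plus strand), encodes the delta-5 desaturase. Its wild-type libraries had 110.4, 107 and 153 FPKM. The knockout had 115, 93.6 and 98.9 FPKM, and the betaine group 130.1, 109 and 112 FPKM. All 3 ranges overlapped, and wild-type replicate 3 was the highest of the 9 libraries. The knockout difference was -0.25 ± 0.17 in log2 (adjusted p 0.290 in limma), and without wild-type replicate 3 it was -0.09. The betaine group was 0.19 above the knockout (adjusted p 0.518) and 0.06 below wild type on the log2 scale (adjusted p 0.851).

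Elovl2, on chr13:41182381-41220405 (minus strand), encodes the elongase of the longer polyunsaturated acids on the way to docosahexaenoic acid. It was at 160.9, 186 and 168 FPKM in wild type, at 93.8, 76.3 and 89.3 FPKM in the knockout and at 79.5, 71.9 and 68.2 FPKM with betaine. Every library of both knockout groups lay below every wild-type library, and the knockout and betaine ranges overlapped. The means were 172 ± 12.6, 86.4 ± 9.09 and 73.2 ± 5.76 FPKM (SD, n = 3 each). Elovl2 fell by 0.99 ± 0.13 in log2 in the knockout (adjusted p 0.00546 in limma). Against wild type the betaine group was at -1.22 ± 0.13 (adjusted p 0.00383). The difference of the betaine group from the knockout was -0.24 ± 0.13 (adjusted p 0.314), with a 95% interval from -0.53 to 0.06.

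Elovl5, on chr9:77917364-77984519 (plus strand), encodes the elongase that acts between the desaturases. It was at 79.4, 91.9 and 173 FPKM in wild type, at 89.8, 78.3 and 75.2 FPKM in the knockout and at 113, 72.7 and 73.6 FPKM with betaine. Apart from wild-type replicate 3 and betaine replicate 1, the libraries lay between 72.7 and 91.9 FPKM. The knockout difference was -0.42 ± 0.29 in log2 (adjusted p 0.299 in limma), and -0.08 without wild-type replicate 3. The betaine group differed from the knockout by 0.06 (adjusted p 0.915).

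Elovl1, on chr4:118428093-118432953 (plus strand), was the lowest of the 7 genes. It was at 13.4, 14.2 and 11.2 FPKM in wild type, at 20.4, 18.0 and 17.7 FPKM in the knockout and at 18.2, 20.7 and 28.1 FPKM with betaine. All libraries of both knockout groups lay above all wild-type libraries. The knockout rise of 0.52 ± 0.17 in log2 had an adjusted p of 0.0497 in limma, just inside the threshold. It was called in 6 of 20 alternative settings, with a change of 0.12 to 0.59 and an adjusted p of 0.0310 to 0.611. Leaving out any one of the 6 wild-type and knockout libraries, or betaine replicate 2, ended the call (adjusted p 0.0605 to 0.135). The betaine group was 0.75 ± 0.17 above wild type (adjusted p 0.0261) and 0.23 above the knockout (adjusted p 0.450). Without wild-type replicate 1 and without betaine replicate 3 the difference from wild type was not called (adjusted p 0.0633 and 0.0785). Cdc20, which overlaps Elovl1, had a mean of 0.368 FPKM and a highest value of 0.896.

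Hacd3, on chr9:64986983-65021693 (minus strand), encodes a dehydratase of the elongation cycle. It was at 54.9, 62.0 and 52.5 FPKM in wild type, at 44.3, 34.7 and 40.7 FPKM in the knockout and at 46.1, 54.6 and 63.3 FPKM with betaine. The knockout libraries were the lowest of the 9, and the betaine range took in the whole wild-type range. The knockout fall of -0.50 ± 0.15 in log2 had an adjusted p of 0.0417 in limma. It was called in 12 of 20 alternative settings, with an adjusted p of 0.00510 to 0.153, and was lost without any one of wild-type replicates 1 and 2, knockout replicates 1 to 3 and betaine replicate 2. The betaine group was 0.44 ± 0.15 above the knockout (adjusted p 0.145) and -0.06 from wild type (adjusted p 0.840).

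Tecr, on chr8:83571698-83607971 (minus strand), encodes the trans-2-enoyl-CoA reductase of the last step. It was at 67.7, 59.7 and 61.5 FPKM in wild type, at 100.6, 103 and 97.3 FPKM in the knockout and at 94.9, 63.8 and 75.2 FPKM with betaine. The knockout libraries were the highest of the 9, and the betaine range reached down into that of wild type. The knockout rise was 0.67 ± 0.15 in log2, or 1.59 times the wild-type mean (adjusted p 0.0155 in limma). The rise was called in 17 of 20 alternative settings, with an adjusted p of 0.00713 to 0.130. Without knockout replicate 2 the adjusted p was 0.0633. The betaine group was at -0.38 ± 0.15 from the knockout (adjusted p 0.191) and 0.29 from wild type (adjusted p 0.238). Hacd3 and Tecr, which act in the same cycle, thus moved in opposite directions in the knockout.

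**Figure D2:**
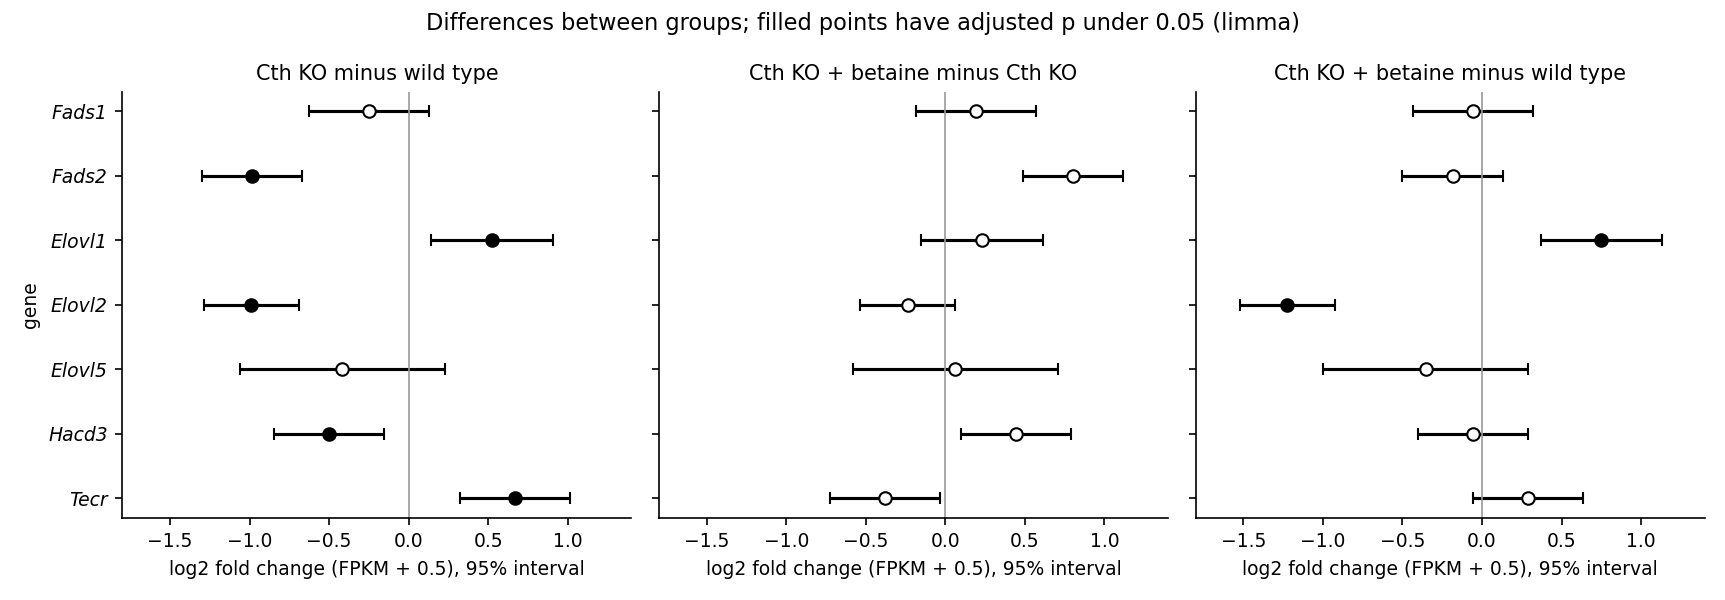
Log2 difference with its 95% interval for each of the 7 genes in the 3 comparisons, from the limma fit, filled where the adjusted p was below 0.05, with a line at 0 for no change. For Elovl2 both intervals against wild type lie below 0, and for Fads2 the knockout interval lies below 0 and the betaine-minus-knockout interval above it.

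In the comparison of betaine-supplemented with unsupplemented knockout, 0 of 7 members were called by limma, against 0.0422% of all genes tested (0.0169% higher and 0.0253% lower). At an unadjusted p below 0.05 there were 3 members (Fads2, Hacd3 and Tecr) and 2672 of the 11852 genes. The same 3 members had groups that did not overlap, which held for 30.3% of all genes tested. Against wild type, 2 of 7 members were called in the betaine group, Elovl1 higher and Elovl2 lower, and the background was 11.7% of genes (5.87% higher and 5.78% lower). The groups of 5 members did not overlap between knockout and wild type, against 46.8% of genes, and those of 2 members, Elovl1 and Elovl2, between betaine group and wild type, against 32.2%. The comparisons share libraries, so their values for a gene are not independent of each other.

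FPKM are per length, so the levels of different members may be set side by side. In wild type Elovl2 (172 FPKM) and Fads2 (163) were highest, followed by Fads1 (123) and Elovl5 (115), then Tecr (63.0), Hacd3 (56.5) and Elovl1 (12.9). Neighbours in this order overlapped in range except Elovl5 with Tecr and Hacd3 with Elovl1. The overlaps of Fads2 with Fads1 and of Fads1 with Elovl5 rest on wild-type replicate 3: in replicates 1 and 2 Fads2 was at 147 and 162 FPKM, Fads1 at 110.4 and 107 and Elovl5 at 79.4 and 91.9. In the knockout Fads1 (103 FPKM) and Tecr (100.2) led, within their spread, ahead of Elovl2 (86.4), Fads2 (82.2) and Elovl5 (81.1), which did not differ beyond theirs. With betaine Fads2 (143 FPKM) was first and Fads1 (117) second. Elovl2 (73.2) overlapped in range with Elovl5 (86.4) and Tecr (78.0), and all its libraries lay above those of Hacd3 (54.6).

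**Figure D3:**
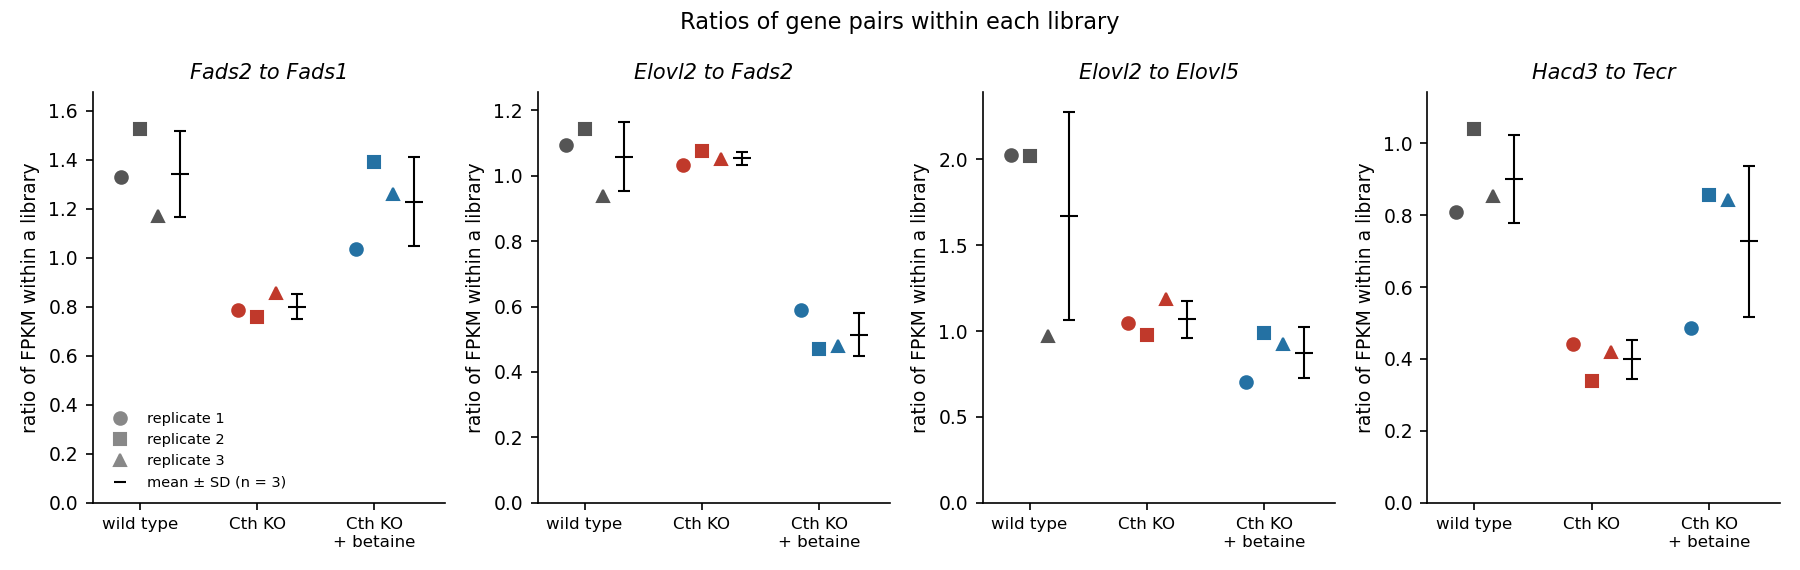
Ratio of the FPKM of 2 members within each library, one panel per pair, with points for the 9 libraries and bars for the mean and SD of 3. Fads2 to Fads1 is lowest in the 3 knockout libraries, and Elovl2 to Fads2 is lowest in the 3 betaine libraries.

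Ratios within a library do not depend on its scaling. Fads2 to Fads1 was 1.33, 1.52 and 1.17 in wild type, 0.788, 0.758 and 0.857 in the knockout and 1.04, 1.39 and 1.26 with betaine. The knockout libraries were thus the only ones with more Fads1 than Fads2 per length. Elovl2 to Fads2, a pair chosen after its values were seen, was 1.06 ± 0.106 in wild type and 1.05 ± 0.0202 in the knockout (SD, n = 3 each). With betaine it was 0.514 ± 0.0659, and no betaine library overlapped the others. The ratio of Hacd3 to Tecr was 0.900 ± 0.122 in wild type, 0.399 ± 0.0540 in the knockout and 0.727 ± 0.209 with betaine. Elovl2 to Elovl5 was 2.03 and 2.02 in wild-type replicates 1 and 2 and 0.972 in replicate 3, against 0.975 to 1.19 in the knockout.

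Of 9 other enzymes of the elongation cycle 5 were tested, and in the knockout 2 rose and 0 fell. These were Hacd2 and Hacd1, dehydratases of the same step as Hacd3, at 0.56 ± 0.14 (adjusted p 0.0186) and 0.51 ± 0.16 (adjusted p 0.0448). Hacd2 was at 14.1, 14.6 and 13.6 FPKM in wild type, 20.5, 22.5 and 20.1 in the knockout and 17.9, 12.7 and 15.9 with betaine. The list's median difference was 0.51 against 0.02 over all genes tested. Of all genes tested, 12.8% were called higher and 12.7% lower in the knockout, shares that apply to each list below. In both betaine comparisons 0 of 5 were called by limma, with 2 at an unadjusted p below 0.05 in each. Over all 11852 genes, 0.0422% and 11.7% were called against knockout and wild type, and 2672 and 3614 had such an unadjusted p. Without wild-type replicate 3 only Hacd2 was called in the knockout, and Elovl6, the elongase of palmitate, was called with betaine (0.86 against the knockout, adjusted p 0.0372, and 0.87 against wild type, adjusted p 0.0131).

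Among 10 tested of 14 other desaturases and their electron donors, 3 rose and 3 fell in the knockout, against 25.6% of all genes called. Cyb5a, the cytochrome b5 that passes electrons to the desaturases, rose by 0.93 ± 0.17 (adjusted p 0.00769). Cyb5r3, the reductase that supplies cytochrome b5, rose by 0.76 ± 0.15 (adjusted p 0.00928). Both were also higher in the betaine group than in wild type, by 0.66 and 0.69 (adjusted p 0.0351 and 0.0217). Cyb5a was at 256 to 292 FPKM in wild type, 492 to 549 in the knockout and 355 to 538 with betaine. Fads3, a relative of the front-end desaturases, rose by 0.82 ± 0.19 from a low level. Degs1, the desaturase of dihydroceramide, was at -0.73 ± 0.15 in the knockout (adjusted p 0.0108). Scd1, the delta-9 desaturase, fell by 1.70 ± 0.42 (adjusted p 0.0201), and by 1.35 without wild-type replicate 3 (adjusted p 0.0481). Cyb5b, the outer mitochondrial cytochrome b5, was at -0.74 with an adjusted p of 0.0475, and 0.0734 without that library. Without it the counts stayed at 3 and 3, with Fads6, a member of the same desaturase family, at -0.73 (adjusted p 0.0368) in place of Cyb5b. Against wild type the betaine group then had Fads3 called (0.74, adjusted p 0.0364) and Cyb5a not (0.62, adjusted p 0.0568).

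The 6 tested of 10 phospholipid acyltransferases had 3 falls and 0 rises in the knockout, against 25.6% of all genes called. Lpgat1, a lysophosphatidylglycerol acyltransferase, was at -0.95 ± 0.19 (adjusted p 0.0103) and Lclat1, a lysocardiolipin acyltransferase, at -0.63 ± 0.13 (adjusted p 0.0123). Mboat7, which places arachidonic acid in phosphatidylinositol, was at -0.43 ± 0.13 (adjusted p 0.0383), and was not called without wild-type replicate 3 (adjusted p 0.0651). Lpgat1 had 26.2 to 28.1 FPKM in wild type, 12.8 to 14.9 in the knockout and 14.5, 20.9 and 26.4 with betaine. Lpcat3, a lysophosphatidylcholine acyltransferase, lay the other way in the knockout and was not called. It was at 23.3 to 26.3 FPKM in wild type, 27.9 to 31.4 in the knockout and 23.1 to 37.1 with betaine. The chains held in phospholipid were not measured. In the betaine comparisons 0 of the 6 were called by limma, with 2 against the knockout and 1 against wild type at an unadjusted p below 0.05. Over all genes tested these unadjusted counts were 2672 and 3614 of 11852.

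Of 8 tested of 11 genes of fatty acid activation, 2 fell and 0 rose in the knockout, against 25.6% of all genes called. These 2 were Acsl3, a long-chain acyl-CoA synthetase (-1.02 ± 0.19, adjusted p 0.00891), and Slc27a5, the bile acid and very-long-chain acyl-CoA synthetase (-0.57 ± 0.15, adjusted p 0.0224). There were 3 falls without wild-type replicate 3: Acsl1, the main long-chain synthetase of liver, was then at -0.73 (adjusted p 0.00900), against -0.38 with all libraries (adjusted p 0.293). Acsl1 had 70.5 FPKM in that library, 147 in each of the other wild-type libraries and 85.3 to 93.8 in the knockout. Neither betaine comparison called any of the 8 in limma, with 3 against the knockout and 1 against wild type at an unadjusted p below 0.05. Over all 11852 genes tested, 2672 and 3614 had such a p. With that library left out, Acsl1 was lower (-0.77, adjusted p 0.00739) and Acsl5 higher (0.76, adjusted p 0.0184) in the betaine group than in wild type. All 15 genes of peroxisomal chain shortening were tested, and 2 rose and 1 fell in the knockout, against 25.6% of all genes called. The thiolases Acaa1a and Acaa1b rose by 0.74 ± 0.20 and 0.70 ± 0.19, and by 0.49 and 0.53 without wild-type replicate 3 (adjusted p 0.0312 and 0.0443). Acaa1a was at 23.1 FPKM in that library and at 38.9 and 40.1 in the other wild-type libraries. The thioesterase Acot4 was at -1.11 ± 0.24 (adjusted p 0.0135). In the betaine group Acox2, an acyl-CoA oxidase, was 0.64 ± 0.16 above wild type and Acot4 was at -1.21 ± 0.24. The Acox2 call was lost without wild-type replicate 3 (0.60, adjusted p 0.0551).

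Among 12 tested of 18 genes that release or oxygenate polyunsaturated chains, 1 rose and 1 fell in the knockout, against 25.6% of all genes. Cyp2c29, an epoxygenase of arachidonic acid, was at -1.75 ± 0.25 in the knockout and at -1.27 ± 0.25 in the betaine group against wild type (adjusted p 0.00567 and 0.0166). Pla2g6, a phospholipase, rose by 0.60 ± 0.18 in the knockout and was not called without wild-type replicate 3 (adjusted p 0.0876). Against wild type the betaine group had Pla2g15 higher by 0.84 ± 0.17 and Pla2g12a at -1.05 ± 0.19. Pla2g12a was also called against the knockout without wild-type replicate 3 (-0.83, adjusted p 0.0494). Of 6 tested genes of ceramide synthesis, which takes up the products of ELOVL1, 0 were called in the knockout by limma and 1 had an unadjusted p below 0.05. Of all 11852 genes tested, 4742 had such a p in the knockout. Cers2, the synthase for very-long-chain ceramides, was 0.56 ± 0.14 above wild type in the betaine group (adjusted p 0.0325). Kdsr, the ketodihydrosphingosine reductase, was called lower there without wild-type replicate 3 (-0.69, adjusted p 0.0364).

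**Figure D4:**
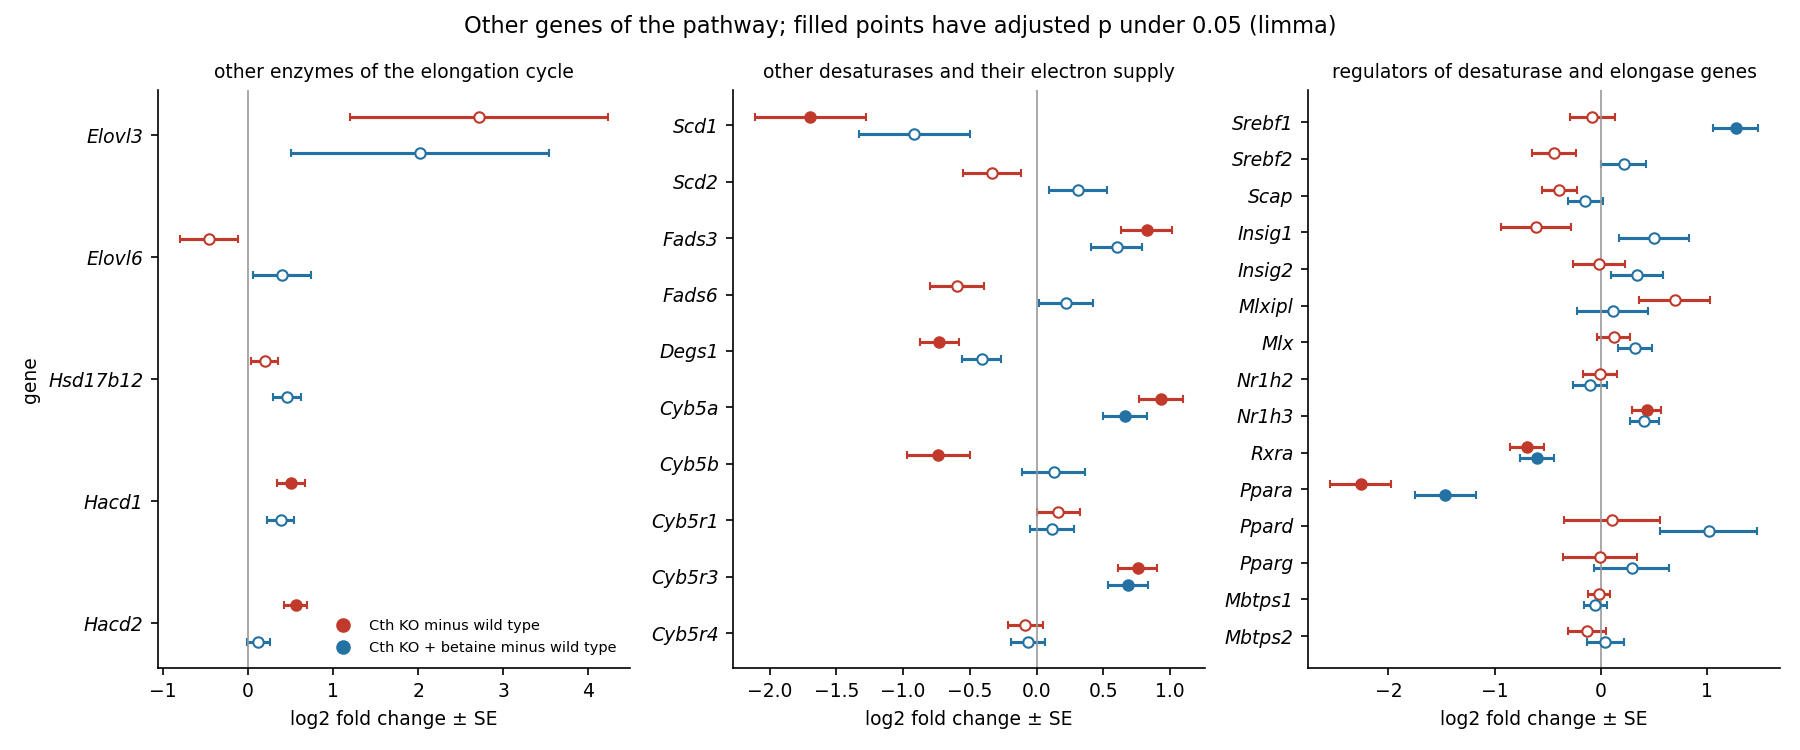
Log2 fold change with its SE from the limma fit for the tested genes of 3 lists (other elongation cycle enzymes, other desaturases with their electron supply, and regulators), one row per gene. Red points are knockout minus wild type, blue points betaine knockout minus wild type, and filled points have an adjusted p below 0.05; Cyb5a and Cyb5r3 are filled above 0 in both colours, Ppara and Rxra below 0 in both, and Srebf1 only in blue.

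Of the 15 regulators of these genes, all tested, 1 rose and 2 fell in the knockout, against 25.6% of all genes called. Ppara, the fatty acid receptor PPAR-alpha, was at 28.4, 19.9 and 29.6 FPKM in wild type, at 3.78, 5.22 and 6.07 in the knockout and at 6.05, 14.0 and 8.45 with betaine. It fell by 2.26 ± 0.29 in log2 in the knockout (adjusted p 0.00546), and the betaine group was at -1.46 ± 0.29 from wild type (adjusted p 0.0177). Rxra, its partner RXR-alpha, was at -0.69 ± 0.16 and -0.60 ± 0.16 in the same comparisons. Nr1h3, which encodes LXR-alpha, rose by 0.44 ± 0.14 in the knockout (adjusted p 0.0465), and the adjusted p was 0.0966 without wild-type replicate 3. Without that library 0 regulators rose and 3 fell in the knockout, the third being Scap, the SREBP escort protein (-0.56, adjusted p 0.0209). Ppard, which encodes PPAR-delta, was then 1.60 above wild type in the betaine group (adjusted p 0.00909).

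Srebf1, which encodes SREBP-1, was at 12.6, 18.1 and 22.4 FPKM in wild type, 14.9, 16.7 and 17.3 in the knockout and 47.3, 47.4 and 33.9 with betaine. The betaine libraries lay above all others, while wild type and knockout overlapped. It was 1.28 ± 0.21 above wild type in the betaine group (adjusted p 0.0103), and 1.35 ± 0.21 above the knockout with an adjusted p of 0.0608. Without wild-type replicate 3 the latter was called, with the same fold change and an adjusted p of 0.0228, as was Srebf2, which encodes SREBP-2 (0.66, adjusted p 0.0458). The knockout itself differed from wild type by -0.08 (adjusted p 0.807).

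Among the 10 tested of 11 lipogenic targets of SREBP-1c, 3 fell and 0 rose in the knockout, against 25.6% of all genes called. The 3 that fell were Gpam, the mitochondrial glycerol-3-phosphate acyltransferase (-2.72 ± 0.54), Scd1 (-1.70 ± 0.42) and Acly, the ATP citrate lyase (-1.04 ± 0.32, adjusted p 0.0424). The list's median difference was -0.44, and it was -0.02 without wild-type replicate 3, where Acly had an adjusted p of 0.0883. Without that library 1 gene rose and 2 fell: Thrsp, a lipogenic regulator, was 2.90 above wild type (adjusted p 0.00886), against 1.76 with all libraries (adjusted p 0.157). Thrsp had 137 FPKM in wild-type replicate 3, 16.7 and 9.20 in the other wild-type libraries and 69.9 to 133 in the knockout. The median of the betaine group against the knockout was 0.93, with 0 called by limma and 6 at an unadjusted p below 0.05. Over all genes tested that unadjusted count was 2672 of 11852. In the same comparison 3 were called higher without wild-type replicate 3 (Acly, Elovl6 and Fasn). Over all genes tested, 129 were then called higher and 144 lower, against 2 and 3 with all libraries. Against wild type the betaine group had 1 higher, Mid1ip1 (0.77 ± 0.21), and 5 without wild-type replicate 3 (Thrsp, Fasn, Acacb, Mid1ip1 and Elovl6). Of all genes tested, 696 (5.87%) were called higher there with all libraries, and 660 without that library. Fasn, the fatty acid synthase, was at 49.3 FPKM in wild-type replicate 3 and at 11.8 and 13.6 in the other wild-type libraries. Its betaine libraries had 33.6 to 43.2 FPKM and its knockout libraries 12.5 to 19.1. Without wild-type replicate 3, Fasn was 1.59 above wild type in the betaine group (adjusted p 0.00359), against 0.96 (adjusted p 0.198) with all libraries.

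Along chromosome 19 Fads3, Fads2 and Fads1 lie next to each other, and 81141 bases separate the start sites of Fads2 and Fads1, which are read away from each other. The locus was read after its values were known. Beyond Fads1, Tmem258 was at 9.45, 23.0 and 16.3 FPKM on average in wild type, knockout and betaine group, a knockout rise of 1.23 (adjusted p 0.00567). Myrf, the next gene, was at -0.58 in the knockout (adjusted p 0.0169). Thus the neighbours of Fads2 differed in direction: Fads3 and Tmem258 rose, Fads2 and Myrf fell and Fads1 was not called.

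Over the 9 libraries, Pearson's r of log2 values was 0.87 between Fads2 and Hacd3 and -0.89 between Fads2 and Tecr. It was -0.87 between Elovl1 and Elovl2 and 0.88 between Fads1 and Elovl5, the pair that was highest in wild-type replicate 3. These values describe libraries that share the group differences. Among 4574 other genes, those most like Fads2 were Lclat1 (r = 0.97) and Pitpnb (0.97), and those most like Elovl2 were Mia3 and Ndel1 (0.99 each). Hacd3 was most like Fbp1 (0.98) and Usp22 (0.97), and Tecr most like Nit2 and Fah (0.99 each). Elovl1 was most like Hes6 and Srm (0.96 each). The closest to Fads1 were Cyp17a1 and Asah1 (0.92 each), and to Elovl5 Slco1a4 and Rgs16 (0.94 each).

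**Figure D5:**
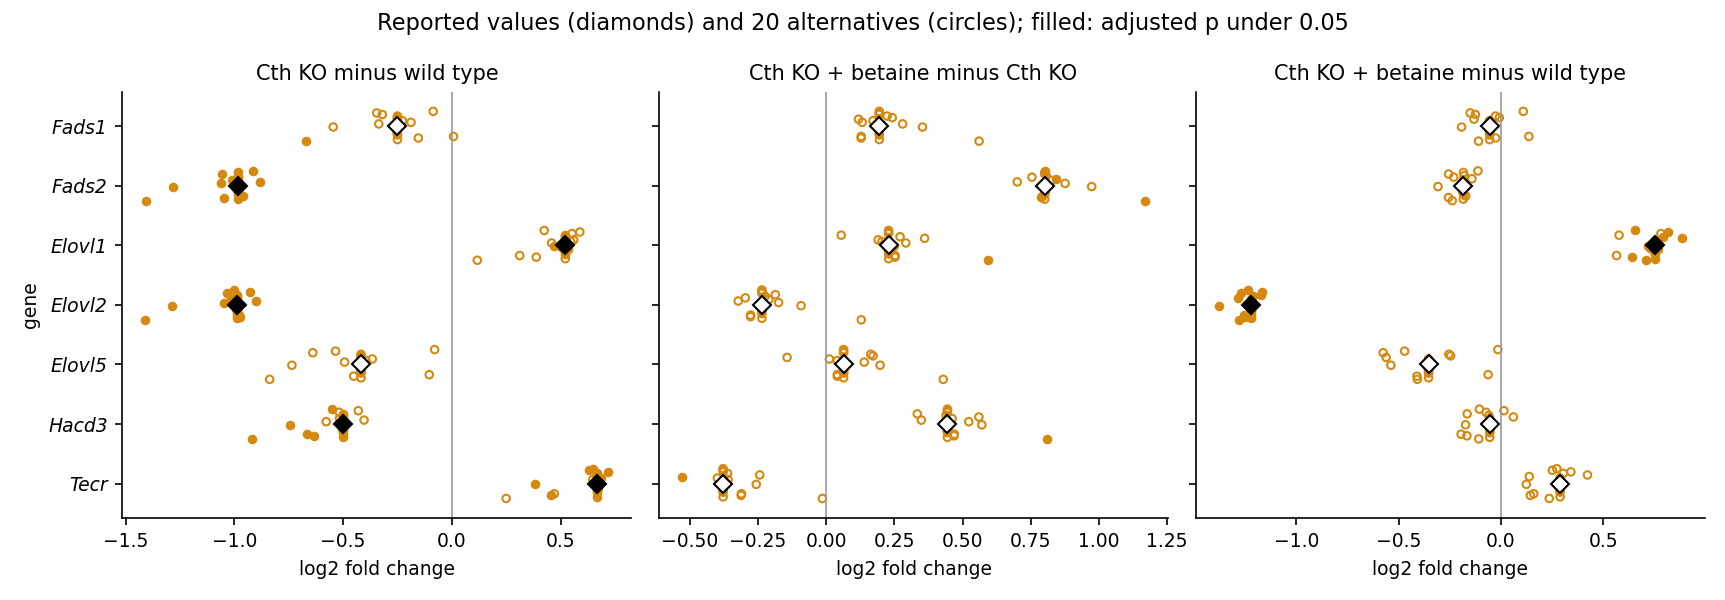
Log2 fold change of each member in the 3 comparisons as reported (diamonds) and under each of the 20 alternatives (circles), filled where the adjusted p was below 0.05. Fads2 and Elovl2 are filled throughout for the knockout, as is Elovl2 for betaine knockout against wild type.

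The falls of Fads2 and Elovl2 in the knockout, and of Elovl2 in the betaine group against wild type, were called in all 20 alternative settings. Rescaling each library to a fixed sum of FPKM (TPM) put the median of all genes at -0.36 in the knockout comparison, against 0.02 as reported. Tecr and Elovl1 were then at 0.25 and 0.12, which is 0.61 and 0.48 above that median, and neither was called. On that scale Fads1 was at -0.67 in the knockout and was called (adjusted p 0.0264). The medians of the other elongation enzymes and the peroxisomal list moved from 0.51 to 0.16 and from 0.13 to -0.23, with 0 of 5 and 0 of 15 genes higher. In the betaine comparison with the knockout, TPM put the median of all genes at 0.33. Elovl2 was then at 0.13, which is 0.20 below that median on the log2 scale. Removing the trend by exon length from each library left 1090 genes called higher and 1072 lower in the knockout. As reported these were 1519 and 1510. The acyltransferases then had 2 falls and a median of -0.03, against -0.29. Fatty acid activation kept 2 falls, and its median moved from -0.30 to -0.11. The regulators and the lipogenic list each had 0 rises and 2 falls.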

How the data were processed

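RNA-seq of 9 mouse liver libraries was analysed, 3 in each of 3 groups assigned from the labels, made with an NEBNext Ultra kit after poly-T selection of mRNA per the labels' protocols. The deposited values are FPKM per gene, made by the authors; HISAT2 2.0.5, featureCounts 1.5.0-p3, DESeq2 1.16.1 and build mm10 are named, with no role, per the submitters' processing notes. With exon lengths from GENCODE M21 (GRCm38, the assembly of mm10), 98.3% to 98.6% of low values (up to 20 reads) were whole reads to within 0.05. The implied denominators were proportional to median-of-ratios size factors. In 1 kb of exon, 3 reads correspond to 0.162 to 0.222 FPKM, a floor that covers counting error alone.

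The 11852 genes whose mean reached 0.5 FPKM were fitted on log2(FPKM + 0.5) with limma 3.58.1 in R 4.3.3 (lmFit, eBayes with trend and robust), all 9 libraries together. Tests were two-sided, with Benjamini-Hochberg adjustment over all genes tested within each of 3 contrasts and a threshold of 0.05. Intervals of differences are 95% limma intervals. Tables and figures used Python 3.11.15. The fit was tested on simulated data. The alternatives covered pseudocount, filter, scaling, exon length, the libraries fitted, eBayes settings, a replicate block and each library left out.

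The members and gene lists were chosen with earlier results of these data known, and nothing here is independent of them. Named genes were the members, up to 3 called genes per list and contrast with the smallest p, and the 2 genes most correlated with each member over the 9 libraries (mean of at least 5 FPKM, no predicted models or pseudogenes). The neighbours of Fads2, Fads3 among them, the genes named only without wild-type replicate 3, Cdc20, the sex-linked genes and some further list members were named after their values were seen. Promoter windows came from RefSeq (GRCm38.p6).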

Additional observations from a re-analysis of the deposited data

How the results depend on the processing

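The fold changes and calls of Fads2 and Elovl2 in the knockout, and of Elovl2 in the betaine group against wild type, kept direction and call in 20 of 20 alternatives. The call of Tecr in the knockout held in 17, that of Hacd3 in 12 and that of Elovl1 in 6, and that of Elovl1 in the betaine group against wild type in 14. The cause of the changes below was not tested.

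Of 3029 genes called in the knockout, 1865 were called with no filter on low values (25420 genes tested), 1820 with the length trend removed and wild-type replicate 3 left out (chosen after seeing the data), and 897 to 3243 with any 1 library left out. The 5 members called became 3 with no filter, 3 with that length setting and 2 to 5 with a library left out. For betaine minus knockout, the 5 genes became 8 and 10 at pseudocounts 0.1 and 1, 1 with no filter, 1754 in TPM, 29 with only the 2 groups fitted, 0 with eBayes without trend and robust, 217 with the length setting and 0 to 882 with a library left out (273 without wild-type replicate 3 and 882 without betaine replicate 1). The 0 members became 3 in TPM (Fads2, Elovl1 and Hacd3), 1 with the length setting and 0 to 2 with a library left out. For betaine minus wild type, the 1381 genes became 531 with no filter, 360 with only the 2 groups fitted and 347 to 1439 with a library left out. The 2 members became 1 in each of these, 1 with the length setting and 1 to 2 with a library left out.

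In TPM 13.8% of the knockout calls were higher against 50.1% as reported, and 95.8% of the betaine-minus-knockout calls against 40% of 5. Changes of sign, all without a call, were Fads1 in the knockout with the length setting (0.0079), Elovl2 for betaine minus knockout in TPM (0.13) and Fads1 for betaine minus wild type with the length setting (0.14). With a library left out the values were -0.14 to 0.17 for Elovl5 in betaine minus knockout, -0.17 to 0.060 for Hacd3 in betaine minus wild type, and -0.15 to 0.11 for Fads1 in betaine minus wild type.

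The replicate numbers showed no sign of pairing: deviations of same-numbered libraries from their group means correlated at -0.23 to 0.098 in 9 pairs, and those of other pairs at -0.14 to 0.26. Such deviations sum to 0 within a group, so these values cannot exclude pairing. With the replicate block 2210, 0 and 671 genes and 3, 0 and 1 members were called, in the order knockout against wild type, betaine against knockout and betaine against wild type. Members had at least 551 reads in every library.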
